A study of Rattus norvegicus with 8 samples.

Results

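The genes described here are 37 members of the machinery that drives the cell cycle and copies DNA. They comprise 6 genes of entry into S phase (G1/S), 10 of DNA replication (S phase) and 21 of mitosis and its approach (G2/M). A member was taken where the platform annotation gave its symbol alone for a probe set, and the probe set with the highest mean over the 8 arrays stood for the gene. By this rule 35 of the 37 were measured, of 14217 genes that could be named on the array. Rrm2, a subunit of ribonucleotide reductase, was named on 2 probe sets that also carry another symbol, and Tpx2, a spindle assembly factor, on none with a single symbol, so neither has a value here.

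Whole left kidneys of female Sprague-Dawley rats aged 29 weeks were ground, and the RNA of 1 kidney was hybridized to each array. The Si deplete rats (n = 4) had an intake of 0.17 mg silicon (Si) per kg body weight per day for 26 weeks, and the Si replete rats (n = 4) 4.1 mg per kg per day. Replicates were separate rats. All values are deposited log2 levels of probe sets, and a difference is Si deplete minus Si replete on that scale, so that 1 is a doubling. Differences were tested with limma over all 31042 probe sets other than controls, with a Benjamini-Hochberg adjusted p under 0.1 as the threshold. Levels of different genes were not compared, since probe sets differ in how strongly they hybridize.

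A cell enters the cycle when D cyclins with CDK4, and then E cyclins with CDK2, inactivate the retinoblastoma protein and release E2F transcription factors. E2F targets then load the MCM helicase onto replication origins and supply the polymerase clamp and the nucleotides. Mitotic genes come later, when the DREAM complex gives way to B-MYB and FOXM1 at promoter elements called CHR. Many mitotic promoters also hold CCAAT boxes. Most cells of the adult kidney are resting, and tubule cells return to the cycle after damage.

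The same promoter elements were looked up in the RefSeq promoter table (build GRCr8), which held 28 of the 37 members, over 250 bases before and 50 bases after the annotated start. The E2F words searched were TTTCCCGC, TTTGGCGC, TTTCGCGC and TTTGCCGC, the CHR words were TTTGAA and TTCGAA, and the CCAAT box was CCAAT, all on both strands. An E2F word stood in 6 of 8 S phase promoters (75%) and in 1 of 17 G2/M promoters (5.88%), against 2.14% of all 33469 promoters. The 6 were Mcm2, Mcm3, Mcm5, Mcm6, Mcm7 and Tyms. A CHR word stood in 12 of 17 G2/M promoters (70.6%) and 3 of 8 S phase promoters (37.5%), against 19.7% of all. The CCAAT box was about as frequent in both groups, in 14 of 17 G2/M promoters (82.4%) and 6 of 8 S phase promoters (75%), against 37.5% of all. CHR and CCAAT words occurred together in 11 of 17 G2/M promoters (64.7%) and 2 of 8 S phase promoters (25%), against 7.95% of all. None of the 3 G1/S promoters in the table (Ccne1, Cdk2, Cdk4) held an E2F or CHR word. Such a match is a description of the letters and not a site shown to be bound.

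The promoters of 4 members are printed to show these letters, from 250 bases before the start through the first 30 bases from it, 5′ to 3′ on the strand of the gene, with matches in capitals. Mcm6 (chr13:42404323-42404602, minus strand) had the largest difference of the S phase members, and Pcna (chr3:139955791-139956070, minus strand) the smallest. Nusap1 (chr3:127057045-127057324, plus strand) and Cdk1 (chr20:19265043-19265322, plus strand) had the smallest p-values of the G2/M members.
Mcm6: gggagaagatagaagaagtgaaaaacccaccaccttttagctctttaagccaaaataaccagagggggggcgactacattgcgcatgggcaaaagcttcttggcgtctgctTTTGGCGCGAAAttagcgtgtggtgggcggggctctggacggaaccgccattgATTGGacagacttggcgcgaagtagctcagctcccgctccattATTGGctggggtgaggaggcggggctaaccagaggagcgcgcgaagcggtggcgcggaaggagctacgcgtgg
Pcna: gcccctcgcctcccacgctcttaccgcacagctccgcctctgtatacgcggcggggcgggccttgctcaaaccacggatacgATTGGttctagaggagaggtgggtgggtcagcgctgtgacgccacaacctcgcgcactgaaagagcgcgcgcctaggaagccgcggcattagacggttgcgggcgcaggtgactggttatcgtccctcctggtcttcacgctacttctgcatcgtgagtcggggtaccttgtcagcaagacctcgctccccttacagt
Nusap1: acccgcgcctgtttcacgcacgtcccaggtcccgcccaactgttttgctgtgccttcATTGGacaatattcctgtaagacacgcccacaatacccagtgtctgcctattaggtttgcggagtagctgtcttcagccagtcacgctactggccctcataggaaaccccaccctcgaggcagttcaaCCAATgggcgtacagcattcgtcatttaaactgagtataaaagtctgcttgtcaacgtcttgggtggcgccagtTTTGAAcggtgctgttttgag
Cdk1: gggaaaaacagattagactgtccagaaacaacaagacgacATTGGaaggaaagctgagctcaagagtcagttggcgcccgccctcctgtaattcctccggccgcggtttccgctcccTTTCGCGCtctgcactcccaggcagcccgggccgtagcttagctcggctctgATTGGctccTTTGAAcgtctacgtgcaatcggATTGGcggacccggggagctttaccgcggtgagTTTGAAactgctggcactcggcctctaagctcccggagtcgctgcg
The Mcm6 sequence held a stretch 139 to 128 bases before the start that reads as an E2F word on each strand, and a pair of CCAAT boxes. The Pcna sequence held a single CCAAT box and none of the E2F words searched. In Nusap1 a CHR word lay 10 to 15 bases after the start, downstream of 2 CCAAT boxes. Cdk1 held all 3 elements, with CHR words at 72 and 16 bases before the start and CCAAT boxes at 210, 81 and 49 bases before it.

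No member passed the threshold, with adjusted p-values of 0.126 to 0.972 in limma, whereas 47 of all probe sets did (0.151%). The members nevertheless lay mostly on one side. Of the 35 measured, 31 had a higher mean in Si deplete kidneys and 4 a lower one, with a median difference of 0.41 against 0.00013 over all 14217 genes. At an unadjusted p under 0.05, 16 of 35 (45.7%) were higher, against 10.5% of all genes, and 0 were lower, against 7.95% of all genes. In 7 members (20%) every Si deplete array was above every Si replete array, against 6.45% of all genes, and in none was the order opposite, against 5.49%. For a single gene the exact two-sided permutation test over 70 arrangements cannot give less than p = 0.0286, the value of these 7.

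The levels of many members were low. Of the 35, 22 had a mean level under 4, which is low on this scale and where signal is hard to tell from background. They were Ccne1 and Ccne2 of G1/S, Mcm3, Mcm5 and Tyms of S phase, and all measured G2/M members except Kif11, Cdc25b and Aurka. Of these 22 dim members, 11 (50%) were higher in Si deplete kidneys at an unadjusted p under 0.05, against 5.8% of all genes with a mean under 4. Of the 13 brighter members, 5 (38.5%) were, against 12.9% of genes with a mean of 4 or more. They were Ccnd2, Mcm2, Mcm4, Mcm6 and Kif11. The plot of the difference of each gene shows both sets.

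**Figure D1:**
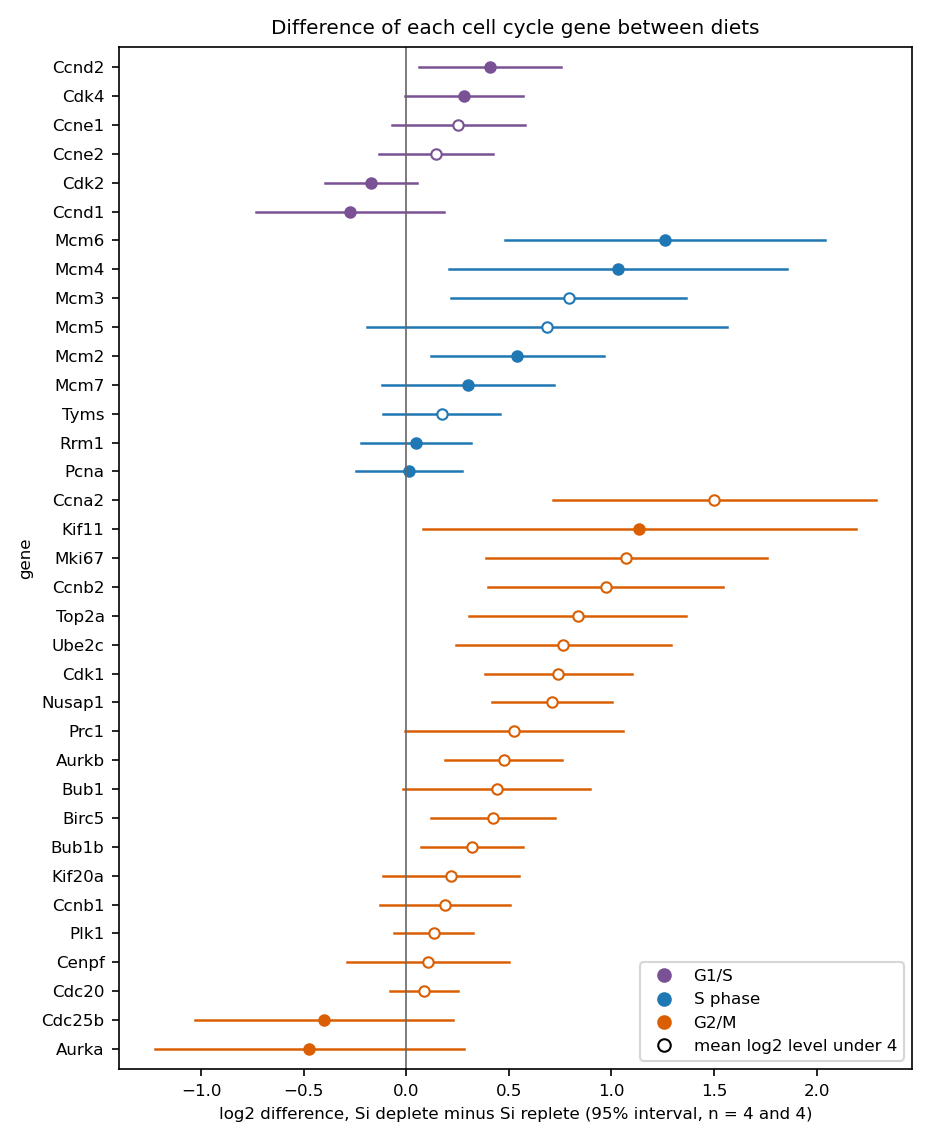
Difference of each of the 35 members on the log2 scale (x axis, Si deplete minus Si replete, bars the 95% interval, 4 arrays in each group), with genes on the y axis ordered within G1/S, S phase and G2/M. The largest differences were those of Ccna2 (1.50), Mcm6 (1.26) and Kif11 (1.14), and Ccnd1, Cdk2, Cdc25b and Aurka lay below 0.

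In whole kidneys, fewer cells of a type and less RNA per cell cannot be told apart. Markers of proximal tubule were high in every array, with a mean level of the 12 genes of 11.17 to 11.87 in kidneys of the Si deplete group and of 11.43 to 12.00 in the Si replete group, and none of them differed at an unadjusted p under 0.05. On the first principal component (42.1% of the variance) Si deplete arrays lay at -1.94 to 64.0 and Si replete arrays at -25.9 to -18.8, without overlap. Si deplete replicate 1 stood apart there, at 64.0 against at most 19.2 for the other arrays. The median level of an array was 3.85 to 3.92 in the Si deplete and 3.80 to 3.84 in the Si replete group, a difference in the same direction as that of most members. With array medians subtracted, 15 of 35 members were higher and 1 (Cdk2) was lower at an unadjusted p under 0.05, and the median difference was 0.48 for S phase and 0.40 for G2/M genes. The 3′ minus 5′ levels of the GAPDH control, a sign of RNA integrity, were 0.58 to 0.66 in the Si deplete and 0.62 to 0.64 in the Si replete group. Those of the actin control were much larger, at 2.91 to 3.28 and 3.04 to 3.19, so signal was weaker toward the 5′ end in both groups.

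The G1/S genes differed least, with a median difference of 0.20 and a range from -0.27 to 0.41. Of the 6, 1 was higher at an unadjusted p under 0.05 and 0 were lower, against 10.5% and 7.95% of all genes. That one was Ccnd2, cyclin D2, at 6.31, 6.06, 6.50 and 6.48 in replicates 1 to 4 of the Si deplete group and at 6.14, 5.68, 6.21 and 5.69 in those of the Si replete group. Both groups overlapped, since Si deplete replicate 2 lay below Si replete replicates 1 and 3. The difference was 0.41 (standard error 0.15, adjusted p = 0.280 in limma).

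Cdk4, the kinase partner of D cyclins, had levels of 9.59, 9.31, 9.11 and 9.08 in Si deplete and of 8.94, 9.03, 8.83 and 9.17 in Si replete kidneys, in replicate order. Only Si replete replicate 4 reached into the Si deplete range, and the difference was 0.28 (standard error 0.13, adjusted p = 0.346 in limma). Cdk2, the partner of E cyclins, went the other way, with levels of 6.02, 5.64, 5.76 and 5.68 in Si deplete and of 5.90, 6.05, 5.97 and 5.88 in Si replete kidneys. Here 3 Si deplete arrays lay below all Si replete arrays, and replicate 1 lay among them. The difference was -0.17 (standard error 0.10, adjusted p = 0.440 in limma). A second Cdk2 probe set, with a mean of 5.15, gave -0.04 (standard error 0.15).

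Ccnd1, cyclin D1, had levels of 11.10, 11.16, 11.19 and 11.94 in Si deplete and of 11.82, 11.60, 11.82 and 11.24 in Si replete kidneys. Of the Si deplete arrays, 3 were below every Si replete array and replicate 4 was above them all. The difference was -0.27 (standard error 0.20, adjusted p = 0.556 in limma). The other Ccnd1 probe sets gave -0.35 and -0.67, the latter at an unadjusted p of 0.0283 in limma, and the only Ccnd2 probe set had the opposite sign. The E cyclins Ccne1 and Ccne2, both under a mean of 4, had differences of 0.25 and 0.15, and a second Ccne2 probe set gave -0.08.

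The S phase genes had a median difference of 0.54, and all 9 measured had a higher mean in Si deplete kidneys. Of them, 4 were higher at an unadjusted p under 0.05, against 10.5% of all genes, and all 4 were subunits of the MCM2-7 helicase. In 3 (Mcm6, Mcm4 and Mcm2) every Si deplete array was above every Si replete array, against 6.45% of all genes. Mcm6 had levels of 7.34, 5.72, 5.48 and 6.27 in Si deplete and of 5.12, 4.80, 4.83 and 5.01 in Si replete kidneys. Si deplete replicate 1 was far above the rest, and the other Si deplete arrays were also above every Si replete array. The difference was 1.26 (standard error 0.35, adjusted p = 0.193 in limma), which is 2.40-fold.

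Mcm4 had levels of 7.66, 6.34, 5.74 and 5.90 in Si deplete and of 5.56, 5.20, 5.31 and 5.43 in Si replete kidneys, a difference of 1.03 (standard error 0.36, adjusted p = 0.256 in limma). Mcm2 had levels of 7.48, 6.72, 6.69 and 6.68 in Si deplete and of 6.61, 6.18, 6.26 and 6.36 in Si replete kidneys, a difference of 0.54 (standard error 0.19, adjusted p = 0.248 in limma). In both, Si deplete replicate 1 was highest, and the lowest Si deplete array was just above the highest Si replete array. Without that replicate the differences were 0.62 for Mcm4, 0.35 for Mcm2 and 0.88 for Mcm6. Mcm3, with a mean under 4, had a difference of 0.79 (standard error 0.25, adjusted p = 0.227 in limma). Mcm5, also under 4, was at 5.38 in Si deplete replicate 1 and at 3.41 to 3.84 in the other Si deplete arrays, against 3.08 to 3.60 in Si replete arrays. Its difference of 0.69 (standard error 0.39) had an adjusted p of 0.437 in limma. Mcm7 had levels of 9.41, 8.75, 8.47 and 8.62 in Si deplete and of 8.58, 8.34, 8.55 and 8.57 in Si replete kidneys. Again replicate 1 was highest, and the remaining arrays of both groups overlapped, with a difference of 0.30 (standard error 0.19, adjusted p = 0.473 in limma). Without Si deplete replicate 1 the differences of Mcm5 and Mcm7 were 0.23 and 0.10.

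Other replication genes among the members differed less. Pcna, the sliding clamp of DNA polymerases, had levels of 10.62, 10.22, 10.05 and 10.24 in Si deplete and of 10.27, 10.25, 10.26 and 10.30 in Si replete kidneys. The 4 Si replete arrays lay close together, with Si deplete arrays on either side of them. The difference was 0.01, with a 95% interval from -0.25 to 0.27 (adjusted p = 0.972 in limma). Rrm1, the large subunit of ribonucleotide reductase, had levels of 7.63, 7.25, 7.16 and 7.45 in Si deplete and of 7.48, 7.32, 7.17 and 7.32 in Si replete kidneys. These ranges overlapped, and the difference of 0.05 had a 95% interval from -0.22 to 0.32 (adjusted p = 0.881 in limma). Tyms, thymidylate synthase, had a difference of 0.17 at a mean under 4.

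**Figure D2:**
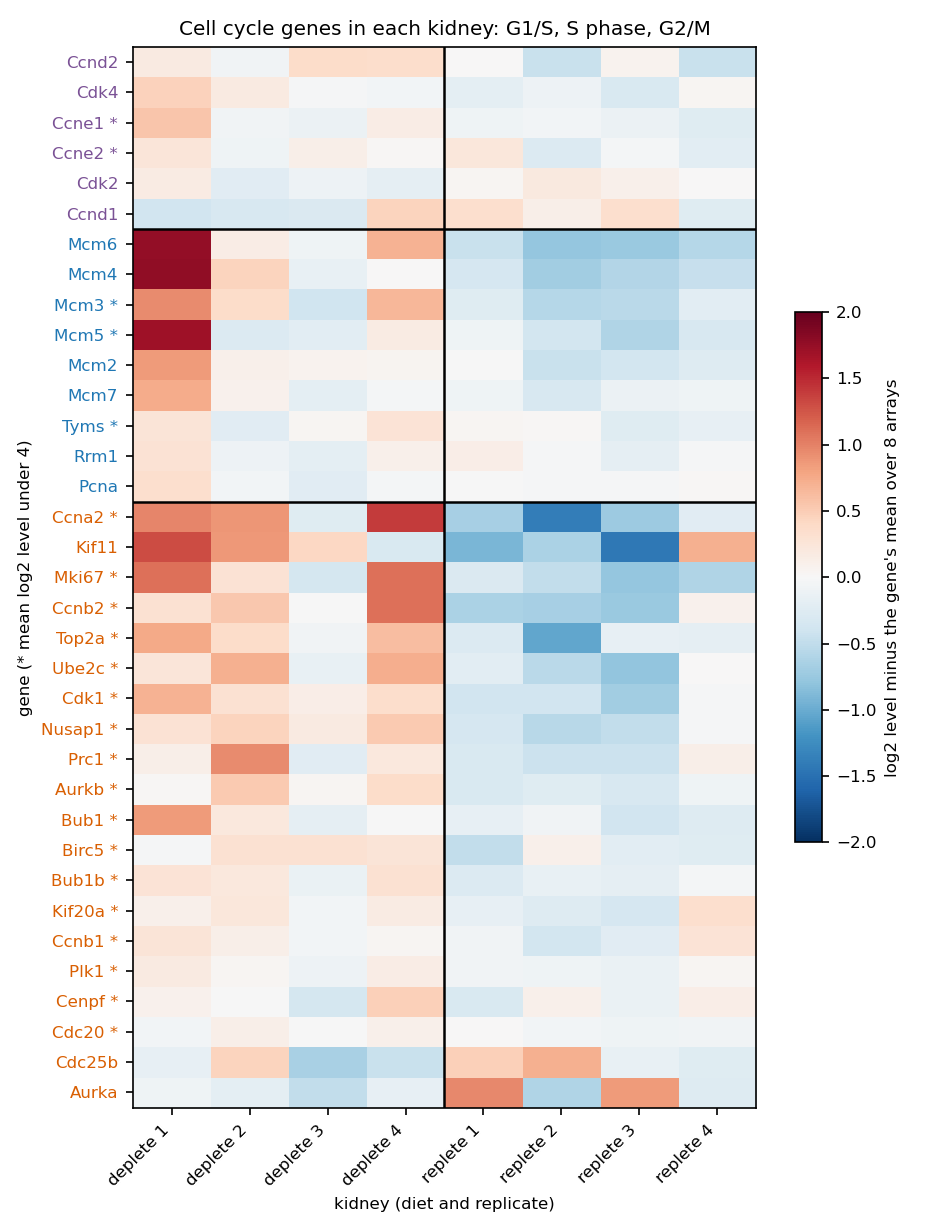
Level of each member in each kidney, as the log2 deviation from the gene's mean over the 8 arrays (colour), with genes on the y axis by phase and kidneys on the x axis by diet and replicate; an asterisk marks a mean under 4. Of the 9 S phase genes, 8 were highest in Si deplete replicate 1, while 7 of the 20 G2/M genes were highest in Si deplete replicate 4 and 11 were lowest in Si replete replicate 3.

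The G2/M genes had a median difference of 0.46, from -0.47 to 1.50, and 18 of the 20 measured had a higher mean in Si deplete kidneys. At an unadjusted p under 0.05, 11 were higher and 0 were lower, against 10.5% and 7.95% of all genes. In 4 of the 20 (Nusap1, Cdk1, Aurkb and Top2a) every Si deplete array was above every Si replete array, against 6.45% of all genes. The mean level was under 4 in 17 of the 20, and Aurka, at 4.18, was just over it. Of these 17, 10 were among the 11 higher ones, against 5.8% of all genes with a mean under 4. The dim genes detailed below were chosen for their small p-values after these were seen.

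Kif11, the kinesin that pushes spindle poles apart, had levels of 6.68, 6.24, 5.78 and 5.07 in Si deplete and of 4.45, 4.74, 3.94 and 6.09 in Si replete kidneys. Only Si replete replicate 4 reached into the Si deplete range. The difference was 1.14 (standard error 0.47, adjusted p = 0.308 in limma), and a dimmer Kif11 probe set gave 0.32 (standard error 0.27).

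Cdc25b, a phosphatase that activates CDK1, had levels of 5.11, 5.72, 4.62 and 4.83 in Si deplete and of 5.75, 5.98, 5.12 and 5.02 in Si replete kidneys. Both ranges overlapped for the most part, and the difference was -0.40 (standard error 0.28, adjusted p = 0.529 in limma). Aurka, the kinase that matures centrosomes, had levels of 4.10, 3.98, 3.68 and 4.01 in Si deplete and of 5.14, 3.58, 5.03 and 3.91 in Si replete kidneys. Si replete replicates 1 and 3 were about 1 unit above the rest while replicates 2 and 4 were below most Si deplete arrays. The difference was -0.47 (standard error 0.33, adjusted p = 0.534 in limma). These were the most negative differences of all members.

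Among the dim genes, Nusap1, which binds spindle microtubules, had the smallest p of any member. Its levels were 3.53, 3.68, 3.42 and 3.76 in Si deplete and 2.90, 2.69, 2.75 and 3.22 in Si replete kidneys. The groups did not overlap, and Si replete replicate 4 came nearest to the Si deplete arrays. The difference was 0.71 (standard error 0.13, adjusted p = 0.126 in limma), against 0.23 on a second probe set.

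Cdk1, the kinase of mitotic entry, had levels of 4.35, 3.96, 3.79 and 4.01 in Si deplete and of 3.27, 3.28, 2.97 and 3.63 in Si replete kidneys. Si deplete replicate 1 was highest and the groups did not overlap, with a difference of 0.74 (standard error 0.16, adjusted p = 0.152 in limma). Among its cyclin partners, Ccna2, cyclin A2, had levels of 4.54, 4.44, 3.32 and 4.96 in Si deplete and of 2.91, 2.17, 2.83 and 3.34 in Si replete kidneys. Si deplete replicate 3 lay just below Si replete replicate 4, and the difference was 1.50 (standard error 0.35, adjusted p = 0.163 in limma). Ccnb2, cyclin B2, had a difference of 0.97 (standard error 0.25, adjusted p = 0.183 in limma), and Ccnb1, cyclin B1, of 0.19 (standard error 0.14, adjusted p = 0.554 in limma). A second, dimmer Ccnb1 probe set gave 0.39 (standard error 0.16, unadjusted p = 0.0343 in limma), with overlapping groups.

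Mki67, the antigen commonly stained to count dividing cells, had levels of 4.74, 3.93, 3.28 and 4.74 in Si deplete and of 3.34, 3.14, 2.87 and 3.04 in Si replete kidneys. Si deplete replicate 3 was within the Si replete range, and the difference was 1.07 (standard error 0.30, adjusted p = 0.203 in limma). Top2a, the topoisomerase that untangles sister chromatids, had levels of 4.36, 3.97, 3.53 and 4.23 in Si deplete and of 3.33, 2.56, 3.44 and 3.43 in Si replete kidneys. The groups did not overlap, and the difference was 0.84 (standard error 0.24, adjusted p = 0.201 in limma). On a second Top2a probe set the groups overlapped, and the difference was 0.37 (standard error 0.19).

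The remaining dim G2/M genes fall by their roles into regulators of chromosome attachment, protein destruction and cell division. In the chromosomal passenger complex, the kinase Aurkb had a difference of 0.47 and its partner Birc5 (survivin) of 0.42, both at an unadjusted p under 0.05. Of the spindle checkpoint kinases, Bub1b (0.32) was also under 0.05 and Bub1 (0.44) was not. Ube2c (0.77), the ubiquitin-conjugating enzyme of the anaphase-promoting complex, was under 0.05. Cdc20 (0.09), an activator of that complex, was not on its brightest probe set. A second Cdc20 probe set of nearly the same level gave 0.38 (unadjusted p = 0.00685 in limma) with no overlap between groups, and the 3 dimmer ones gave -0.16 to -0.01. Prc1 (0.53) and Kif20a (0.22), which act on the central spindle, the kinase Plk1 (0.13) and the centromere protein Cenpf (0.11) did not pass either level.

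Which kidneys had the highest values varied by phase. For S phase genes the median deviation from the mean over 8 arrays was 0.85 in Si deplete replicate 1, -0.19 to 0.10 in the other Si deplete kidneys and -0.37 to -0.08 in Si replete kidneys. For G2/M genes it was 0.25, 0.31 and 0.28 in replicates 1, 2 and 4 of the Si deplete group and -0.09 in its replicate 3, against -0.37 to -0.03 in Si replete kidneys. The G2/M signal was therefore shared by 3 Si deplete kidneys, and that of S phase was largest in one. For G1/S genes it was -0.08 to 0.21 and -0.22 to 0.02. Without Si deplete replicate 1, the median difference of S phase genes was 0.23, that of G2/M genes 0.52 and that of G1/S genes 0.10. The same 4 S phase genes (Mcm2, Mcm3, Mcm4 and Mcm6) were then under an unadjusted p of 0.05, and 10 of 20 G2/M genes were.

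**Figure D3:**
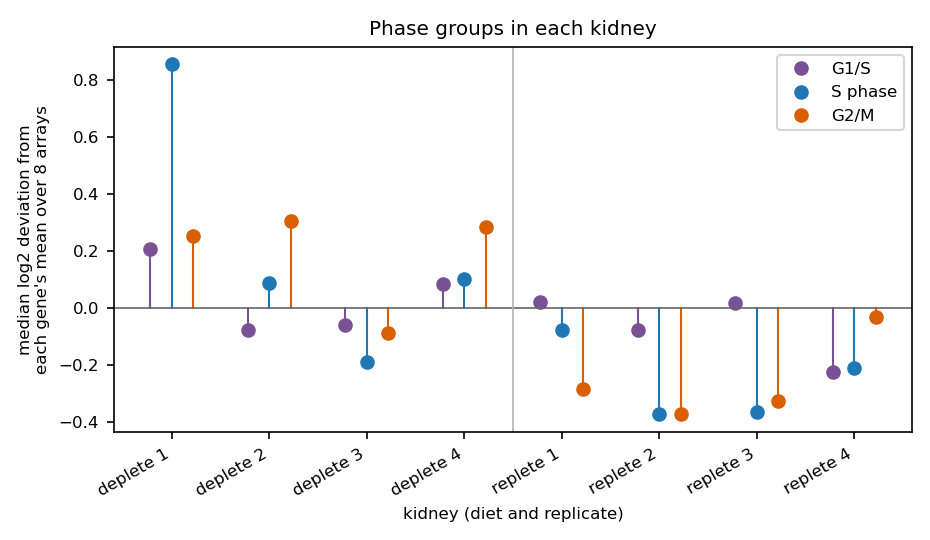
Median log2 deviation of the G1/S, S phase and G2/M members from each gene's mean over the 8 arrays (y axis) in each kidney (x axis, diet and replicate). The S phase point of Si deplete replicate 1 (0.85) stands above all others, and the G2/M points of Si deplete replicates 1, 2 and 4 (0.25 to 0.31) lie above those of Si replete kidneys.

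Wider lists of the same pathway, chosen by function with earlier results of these data known, were read in the same way. None of their genes passed. Of 57 other G2/M genes measured, 18 were higher and 0 were lower at an unadjusted p under 0.05, with a median difference of 0.17, against 10.5% and 7.95% of all genes and a median of 0.00013. Of the 57, 45 had a mean under 4 and 15 of these were higher, against 5.8% of all genes at that level. Ect2, which starts the contractile ring, had levels of 4.45, 4.90, 4.53 and 5.53 in Si deplete and of 3.61, 3.28, 3.52 and 4.04 in Si replete kidneys. The groups did not overlap, with a difference of 1.24 (standard error 0.25, adjusted p = 0.136 in limma). Cks2, a small subunit of cyclin-dependent kinases, had levels of 7.82, 7.53, 6.95 and 7.68 in Si deplete and of 6.44, 6.36, 5.71 and 6.94 in Si replete kidneys. Here the lowest Si deplete array barely cleared the highest Si replete array, and the difference was 1.13 (standard error 0.26, adjusted p = 0.165 in limma). Racgap1, the partner of Ect2 at the central spindle, had a difference of 0.33 (standard error 0.14, adjusted p = 0.306 in limma). Of the 57, 14 had a lower mean. Among the brighter of these, Smc4 (-0.19), Cenpn (-0.20) and Smc2 (-0.19) had the smallest p, all over 0.05.

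Of 47 other DNA replication genes measured, 9 were higher and 2 were lower at an unadjusted p under 0.05, with a median of 0.18. Over all genes these shares were 10.5% and 7.95%, so the lower genes were no more frequent here than among all genes. The brighter ones with the smallest p were Fen1, the flap endonuclease of lagging strands (0.44), the thymidine kinase Tk1 (0.49) and the polymerase delta subunit Pold1 (0.53), of which Pold1 was just over 0.05. In all 3, Si deplete replicate 1 was the highest array. The lower ones were the single-strand binding subunit Rpa3 (-0.39) and the origin recognition subunit Orc4 (-0.38). Their adjusted p-values in limma were 0.202 and 0.227. In these 2 of the 47 every Si deplete array was below every Si replete array, against 5.49% of all genes. In 4 others (Tk1, Dck, Uhrf1 and Dtl) the order was opposite, against 6.45%, and of these Dck, Uhrf1 and Dtl had a mean under 4. The clamp loader subunit Rfc1 (-0.26) had the next smallest p among the brighter genes with a lower mean.

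In the smaller lists 0 to 2 genes were called in either direction, beside 10.5% higher and 7.95% lower of all genes. Of 15 other G1/S regulators, 1 was higher and 2 were lower, with a median of 0.00. Cks1b (0.34) was higher, and the phosphatase Cdc25a (-0.36) and the CDK-activating kinase Cdk7 (-0.19) were lower, all at an unadjusted p under 0.05. Of 13 subunits of the anaphase-promoting complex, 2 were higher and 0 were lower (median 0.11), namely Anapc2 (0.32) and Cdc23 (0.37). Of 7 CDK inhibitors, 1 was higher and 0 were lower (median -0.07). It was Cdkn1a (p21), the inhibitor induced by p53, with levels of 8.64, 7.72, 7.66 and 6.53 in Si deplete and of 5.82, 5.63, 6.55 and 7.71 in Si replete kidneys. Replicates 3 and 4 of each group lay in the range of the other group, and the difference was 1.21 (standard error 0.52, adjusted p = 0.326 in limma). Cdkn1c, Cdkn1b and Cdkn2c had differences of -0.41, -0.13 and -0.13.

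**Figure D4:**
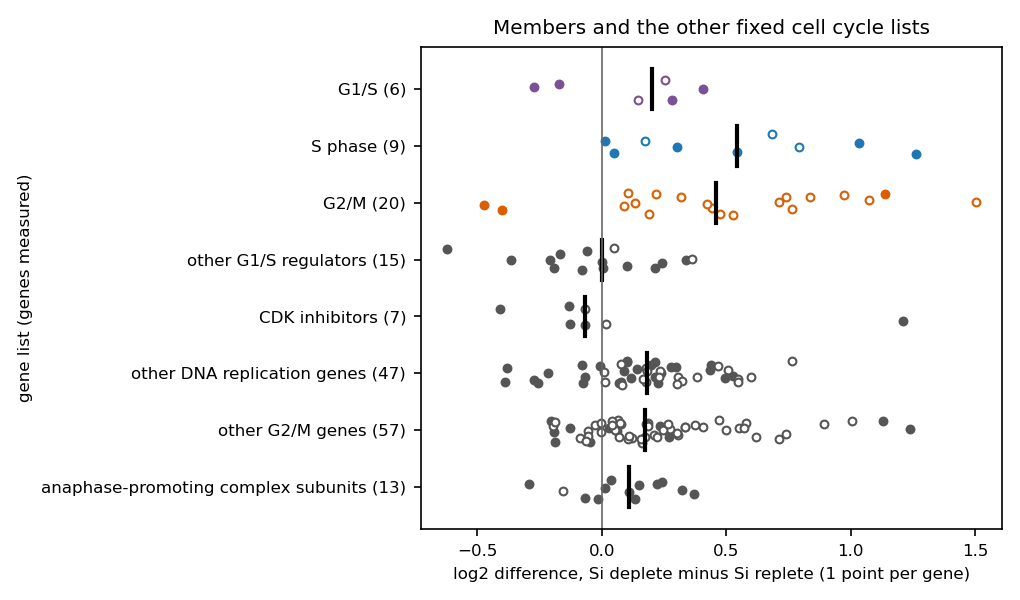
Log2 difference of each gene (x axis, Si deplete minus Si replete, 1 point per gene, open where the mean level is under 4, bar at the median) in the 3 phase groups and in the other cell cycle lists (y axis, with genes measured). Medians were 0.54 for S phase and 0.46 for G2/M members, and 0.18 and 0.17 for the other DNA replication and G2/M genes.

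Markers of other cell types and states are given beside these values, at an unadjusted p under 0.05, where 10.5% of all genes were higher and 7.95% were lower. Of 11 genes of injured tubule, 10 were higher in Si deplete kidneys, and in 9 the groups did not overlap, against 6.45% of all genes. None of the 11 had a mean under 4, and their mean level was 10.44 to 11.80 in the Si deplete group against 9.39 to 10.22, highest in Si deplete replicate 1. Higher at the same level were also 6 of 14 genes of macrophages and myeloid cells, with a mean level of 5.86 to 6.64 and 5.10 to 6.29, and 3 of these 14 genes, Cd68, Cd163 and Itgam, were under 4. So were 4 of 11 lymphocyte genes, 8 of them under 4, with a mean level of 3.04 to 3.97 and 2.89 to 3.18. Of 12 genes of fibroblasts and mural cells, 4 were higher, with a mean level of 6.94 to 7.88 and 6.63 to 7.09 and 2 genes under 4. At that level 3 of 7 glomerular genes were lower (mean level 7.06 to 7.80 and 7.69 to 8.06), as were 3 of 6 genes of blood cells (6.62 to 7.16 and 6.93 to 7.50). No marker gene passed the threshold on its brightest probe set. The part of these cells in the cell cycle values was not tested.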

How the data were processed

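Expression was measured in 8 rat kidneys, 4 from each diet, on Affymetrix arrays. The deposited values are log2 levels per probe set, for which the authors had run gcRMA with m-estimators in the summarization step (GCRMA 2.36.0 in the submitters' processing notes). Probe intensities were not analysed here, and the number of arrays limits the precision.

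Groups were taken from the labels. Differences were fitted in limma 3.58.1 (R 4.3.3; lmFit, then eBayes with neither trend nor robust prior) over 31042 probe sets, 57 controls having been left out, with Benjamini-Hochberg adjustment and a threshold of 0.1. An exact two-sided permutation test over the arrays was added for single genes. Lists are described by counts and medians, read against the shares of all genes called and their median, with no test of a list. The members and lists were chosen with earlier results of these data known. Values in every array are given for up to 6 members per phase with the smallest p and a mean of 4 or more and for the 2 most negative, and further dim members were added after their values were seen. From each other list, up to 3 genes per direction were named. Symbols come from the platform annotation, and all 35 measured members matched RefSeq GRCr8 by Entrez ID.

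The alternatives concerned the fit (a replicate block, array weights, an eBayes prior that was robust or followed intensity), the values (quantile normalization, centring on array medians, leaving out means under 4), the call (Storey's q-value at a lambda of 0.5, or an adjusted p under 0.05), the probe set chosen for a gene, and the omission of single arrays. The limma fit was tested on simulated data.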

Additional observations from a re-analysis of the deposited data

Results flagged for a closer look

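Among 76 groups of 4 arrays (each member and each phase median in each diet), 7 held an array far from the other 3, by a gap above Dixon's critical value. Chance alone gives about 1 in 20 such groups. In Si deplete kidneys, Ccnd1 was 11.94 in replicate 4 against 11.10 to 11.19 in the others, Mcm2 was 7.48 in replicate 1 against 6.68 to 6.72, and Birc5 was 2.57 in replicate 1 against 2.86 to 2.90. The median deviation of the G2/M genes was -0.0899 in Si deplete replicate 3 against 0.25 to 0.31. In Si replete kidneys, replicate 2 was low for Mcm7 (8.34 against 8.55 to 8.58) and for Top2a (2.56 against 3.33 to 3.44), and replicate 4 was high for Ccnb2 (3.91 against 3.08 to 3.18).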

How the results depend on the processing

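With another eBayes prior, with the replicate block or with means under 4 left out, the difference of a member cannot change. Nor can the choice of probe set change it for members with a single probe set. These fixed values are counted among the 573 values of single members under the alternatives, of which 563 kept their direction. The 10 others belonged to 5 members with small differences: Pcna (-0.0440 with array weights, -0.0442 with array medians subtracted, and -0.0981 to 0.0894 with single arrays left out), Rrm1 (-0.0023 with array weights, -0.0089 with array medians subtracted, and -0.0394 to 0.119 with single arrays left out), Cenpf (-0.0375 to 0.239 with single arrays left out), and, on the probe set with the smallest spread, Ccne2 (-0.0809) and Cdc20 (-0.0088). With probe sets under a mean of 4 left out, 13 members were left, of which 5 were higher at an unadjusted p under 0.05 and 3 did not overlap. The median difference was then 0.0537 for G1/S genes and -0.40 for G2/M genes, the latter over Kif11, Cdc25b and Aurka alone, so the sign of the G2/M median rests on the dim probe sets.

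No member passed in the comparison reported. By Storey's q-value 1 passed, Nusap1. With the replicate number as a block 1 passed, Ccnb2 (adjusted p = 0.0876 in limma). Deviations of each probe set from its group mean were correlated between the diets, giving -0.088 to 0.09 for arrays of the same number. For 4 of 8 arrays the closest match in the other diet, by these deviations, carried the same number, which was not taken as pairing. By the paper's methods, each day of tissue collection took 1 rat per group. No label ties an array to a day, so pairs could not be formed by day. With single arrays left out, 0 to 4 members passed. The 4, without Si deplete replicate 3, were Mcm3, Mki67, Ccna2 and Nusap1, at adjusted p-values of 0.0627 to 0.0794 in limma. Members without overlap then numbered 7 to 16, with 16 when either Si deplete replicate 3 or Si replete replicate 4 was left out, where fewer arrays make a gap easier. Members higher at an unadjusted p under 0.05 numbered 14 to 19. At that level 1 member was lower in each of 7 alternatives, namely Cdk2 with array weights, with array medians subtracted and without Si deplete replicate 1, Ccnd1 without Si deplete replicate 4, Cdc25b with the replicate block and without Si deplete replicate 2, and Aurka without Si replete replicate 2 (-0.21 to -0.75). The median was 0.10 to 0.25 for G1/S, 0.23 to 0.63 for S phase and 0.38 to 0.56 for G2/M genes, with the lowest G1/S and S phase medians without Si deplete replicate 1. Low signal limits the 22 dim members most.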
